A study of Drosophila melanogaster with 6 samples.

Results

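The genes described here are 32 autophagy and TOR signalling genes of Drosophila melanogaster, counted in sorted intestinal progenitor cells. They were chosen by name from the known machinery, and a gene entered where its symbol stood in the deposited table of molecule counts. All 32 were found among the 13189 genes of that table. The samples were 6 libraries, 3 from flies labelled wildtype and 3 from flies labelled Pex5-depleted, and each library pooled cells of 200 guts, from which about 40000 GFP-positive cells were sorted. GFP was driven by escargot (esg), a gene active in the stem cells and enteroblasts of the midgut, and flies with the esgGFP driver crossed to w1118 set the gate. The labels name neither the means of Pex5 depletion nor the age or sex of the flies. Libraries were made with a kit that tags each captured poly-A molecule near its 3' end with a unique molecular identifier (UMI), so that a UMI stands for 1 captured molecule.

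Autophagy encloses cytoplasm in a double membrane, the autophagosome, which then fuses with the lysosome. The Atg1 kinase complex starts the process, the lipid kinase Vps34 marks the membrane with the lipid PI3P, and a pair of ubiquitin-like systems couples Atg8 to the growing membrane. The kinase Tor, in a complex with raptor, restrains Atg1 and promotes growth when nutrients and insulin are present. The Tsc1 and gigas (gig, the fly Tsc2) proteins hold the complex in check by acting on the GTPase Rheb, and in the fly midgut loss of this brake is known to enlarge stem cells. Most control of autophagy is exerted on proteins, by phosphorylation and turnover, which transcript counts do not measure.

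Depth was 2573882 to 4793433 UMIs per library, of which the members took 2500 to 3903. The Pex5 transcript itself was counted 8, 6 and 14 times in control libraries, against 2, 21 and 41 times in those labelled Pex5-depleted (log2 fold change 1.24, SE 0.87, adjusted p = 0.607). Pex5 transcript was thus not lower in the second group, which is called by its label throughout. The driver gene esg was detected in every library, at 29.6 to 65.9 CPM, which are counts per 1000000 UMIs after scaling by edgeR's TMM factors, and 0 of 14 tested progenitor markers passed edgeR's test, described next. Of all tested genes 1.65% passed edgeR's test. At an unadjusted p under 0.05 there were 4 of these markers, where 13.2% of all tested genes reached it. DESeq2 called 2 of the 14, beside 3.69% of all tested genes. They were mira (log2 fold change 1.67, adjusted p = 0.00724 by DESeq2 and 0.0788 by edgeR) and E(spl)mbeta-HLH (log2 fold change 0.70, adjusted p = 0.0385 by DESeq2 and 0.142 by edgeR). The limma-voom fit called 0, beside 1.49%. Summed markers of visceral muscle reached at most 13.3 CPM, of haemocytes 19.1 CPM and of fat body 9.67 CPM. In pools of cells such as these, fewer cells of a type and less RNA per cell cannot be told apart.

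None of the tested autophagy and TOR genes passed the test between the groups. Of the 32 members 23 met edgeR's expression filter and were tested. Among these, 0 passed a Benjamini-Hochberg adjusted p of 0.05 in edgeR's quasi-likelihood test, adjusted over the 5639 genes that entered it. Of these 5639 genes 1.65% passed, 0.833% higher and 0.816% lower. Lamp1 and Atg6 had an unadjusted p under 0.05, which is 2 of 23 beside 13.2% of all tested genes. Both were lower, where 6.67% of all tested genes were lower at that p. With limma-voom 0 members passed, beside 1.49% of all tested genes. With DESeq2 0 passed of the 12 to which that tool gave an adjusted p, beside 3.69% of all tested genes. That share is taken over all 5639 genes, with or without an adjusted p from DESeq2, so its base is wider. The fitted log2 fold changes, all given for the libraries labelled Pex5-depleted over control, were positive for 12 members and negative for 11. Their median was 0.0824 beside 0.0342 over all tested genes, and the median of their absolute size was 0.34 beside 0.39.

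**Figure D1:**
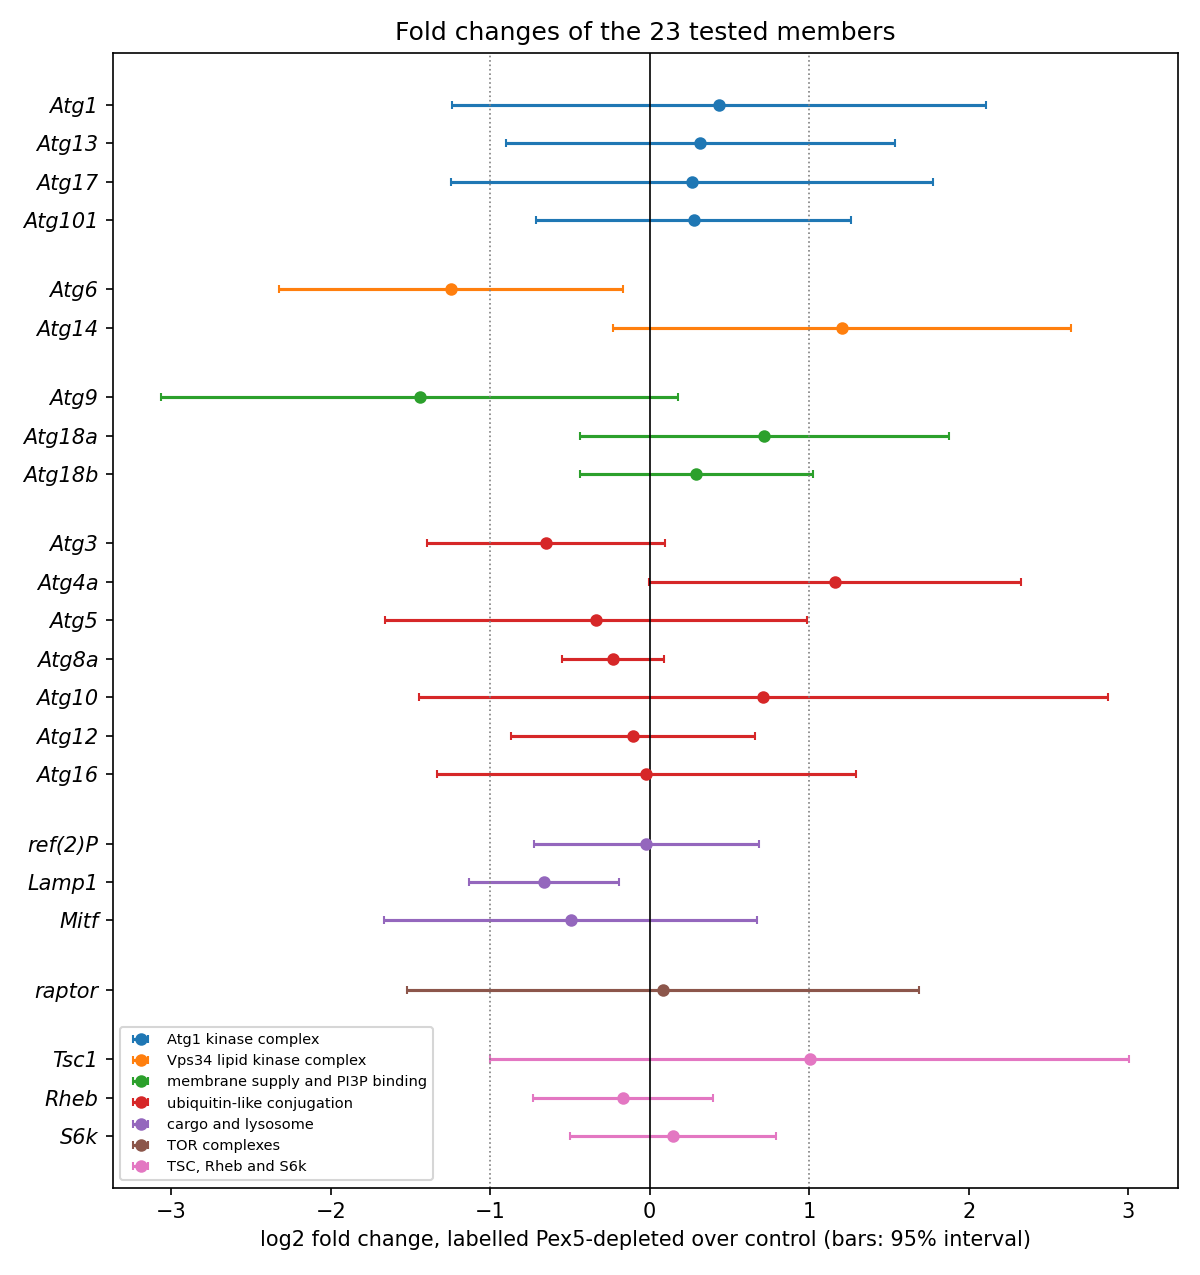
The log2 fold change of each tested member, labelled Pex5-depleted over control, with its 95% interval, coloured by role; dotted lines mark a 2-fold change in either direction. The points run from -1.44 (Atg9) to 1.20 (Atg14), and only the intervals of Lamp1 and Atg6 leave out 0.

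How large a change these counts could have shown differed from gene to gene. The 95% interval lay within a 2-fold change in both directions for 5 of the 23 members, namely Atg8a, Atg12, ref(2)P, Rheb and S6k. For 6 members the interval reached a 2-fold change in both directions, and for 18 in at least 1 direction. The standard error ran from 0.15 for Atg8a, with 11649 UMIs in all, to 1.01 for Atg10, with 72. The chi-square per degree of freedom within groups, which is near 1 for counting error alone, ran from 0.776 for Mitf to 17.6 for Lamp1. Its median over the tested members was 6.38 and over all tested genes 6.26.

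**Figure D2:**
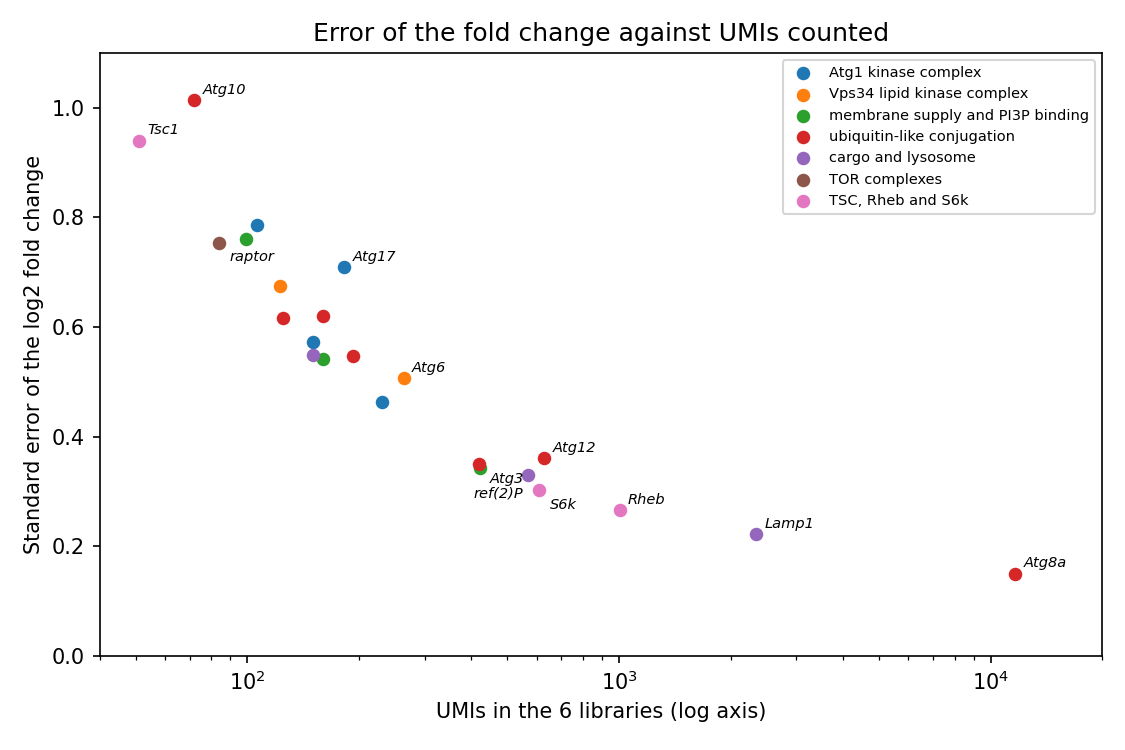
The standard error of the log2 fold change of each tested member against its UMIs in the 6 libraries (log axis), coloured by role. The error falls from 1.01 (Atg10, 72 UMIs) to 0.15 (Atg8a, 11649 UMIs).

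A second description is whether the 3 values of one group all lay on one side of the 3 values of the other. This was so for 6 of 23 tested members (26.1%), beside 19.2% of all tested genes. All 6 were lower in the libraries labelled Pex5-depleted, beside 9.42% of all tested genes, and 0 were higher, beside 9.74%. The 6 were Atg6, Atg9, Atg3, Atg8a, Lamp1 and Mitf, with log2 fold changes from -1.44 to -0.23, none past the test. Their fold changes were negative in all 14 alternative fits. Those fits use the same libraries, and the 6 were picked for lying apart in them, so the shared sign adds no support. The Atg9 groups overlapped when the library size left out ribosomal protein, mitochondrial and heat shock transcripts. Other measures moved between the same libraries. Summed enteroendocrine markers were at 1065 to 3120 CPM among the controls against 557 to 1002 CPM in the other group. Of 11 tested markers 10 had negative fold changes, and 3 passed edgeR's test as lower, beside 0.816% of all tested genes. Among them Orcokinin was at 2175, 1424 and 234 CPM in control replicates 1, 2 and 3. It was at 179, 288 and 344 CPM in replicates 1, 2 and 3 labelled Pex5-depleted, so that its groups overlapped. Orcokinin did not pass DESeq2 (adjusted p = 0.0936) or limma-voom (0.117). The groups of 7B2 and Phm did not overlap. Adjusted p by edgeR, DESeq2 and limma-voom was 0.0247, 0.000444 and 0.0241 for 7B2 and 0.0417, 0.000976 and 0.0197 for Phm. In the 6 edgeR fits without 1 library 7B2 passed in 1 and Phm in 2. Summed enterocyte markers were at 351 to 578 and 753 to 823 CPM. Of 9 tested markers 8 had positive fold changes, and 2 passed edgeR's test as higher, beside 0.833% of all tested genes. Summed progenitor markers were at 1209 to 1512 and 1428 to 1929 CPM. Mitochondrial-genome transcripts took 5.63% to 7.44% of UMIs in the controls and 8.04% to 9.31% in the other group, and heat shock transcripts took 1.79% to 3.50% and 3.90% to 4.47%. The part of these in the member values was not tested. The summed level of all 32 members, most of it Atg8a, was 1038 ± 14.1 CPM among the controls against 898 ± 75.3 CPM in the other group (SD, n = 3 each). Without Atg8a the sums were 429, 388 and 469 CPM in control replicates 1, 2 and 3. They were 389, 337 and 408 CPM in replicates 1, 2 and 3 labelled Pex5-depleted, so that the groups overlapped.

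**Figure D3:**
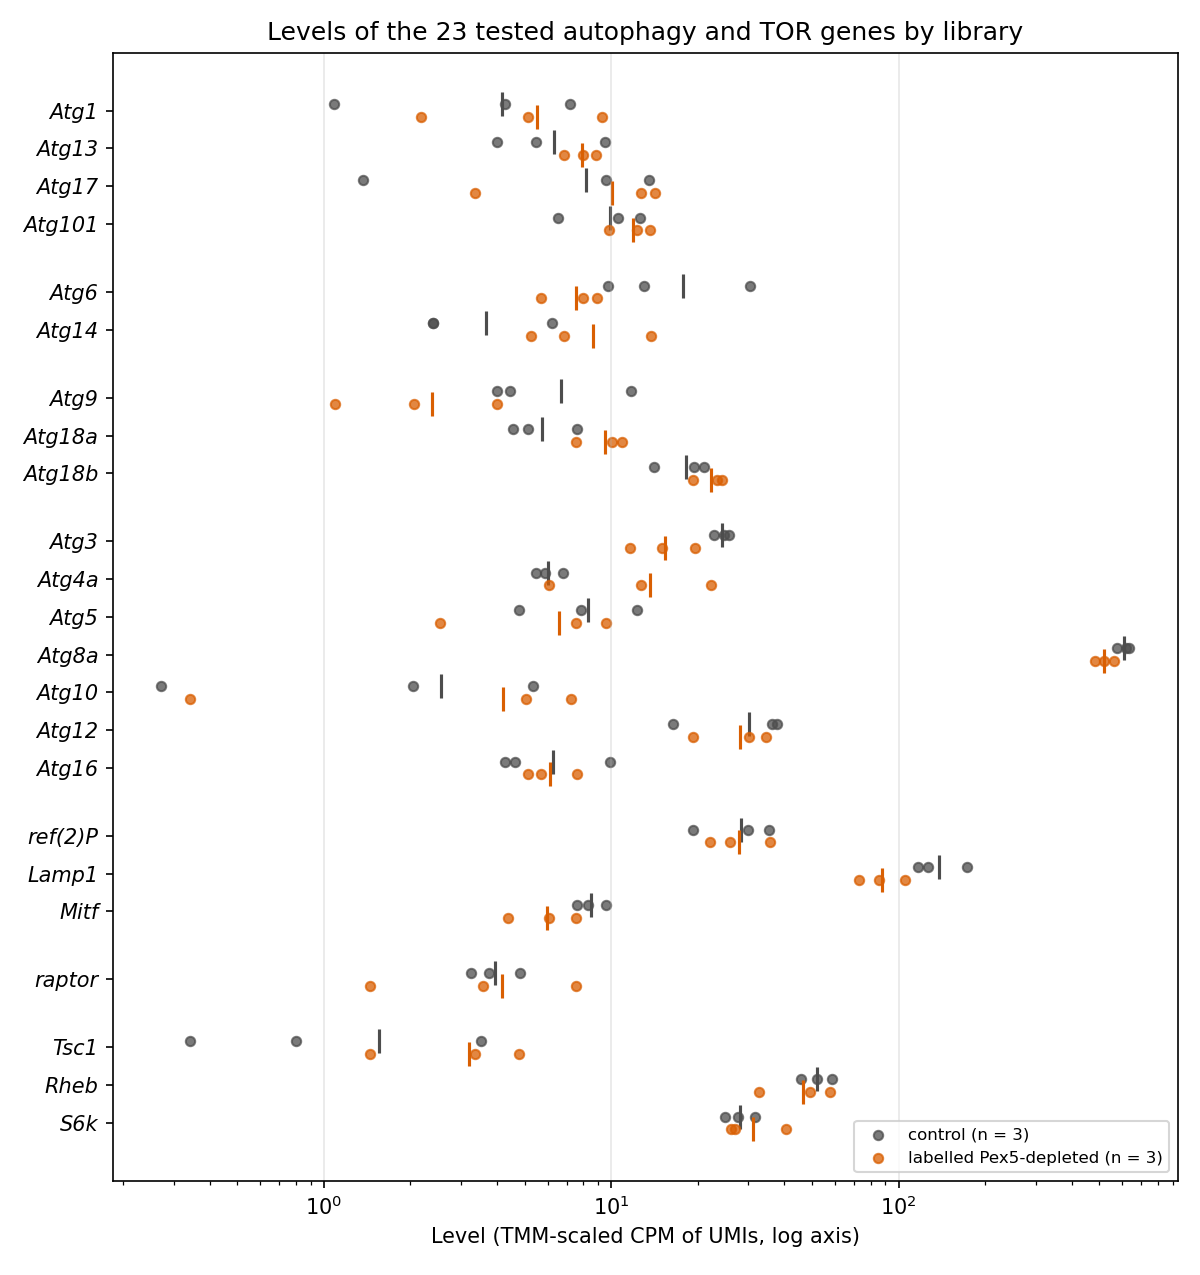
The level of each tested member in each library, in TMM-scaled CPM on a log axis, grouped by role; small ticks mark the mean of 3 libraries. The control and other points lie apart, with the control points higher, for Atg6, Atg9, Atg3, Atg8a, Lamp1 and Mitf, and overlap for the other 17 genes.

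The Atg1 kinase complex, which receives the signal from Tor and starts autophagosome formation, had all 4 members tested and 0 past the threshold. The 4 levels summed to 30.7, 24.6 and 30.4 CPM in control replicates 1, 2 and 3 and to 34.1, 35.1 and 36.9 CPM in the replicates labelled Pex5-depleted. The sums of the groups thus did not overlap, although each single gene's did. This was not particular to the Atg1 complex, and some other roles lay the opposite way. Ubiquitin-like conjugation genes summed to 661 to 707 CPM among the controls against 564 to 653 CPM in the other group. Cargo and lysosome genes summed to 159 to 201 against 101 to 145 CPM. Single genes made up most of these sums, Atg8a 609 of a control mean of 690 CPM and Lamp1 139 of 175 CPM. Both were named above as lying apart, so the sums add little to them. The sums of the remaining roles overlapped, and no share over other gene sets is given for such sums. Atg1 (FBgn0260945, chromosome 3L, 12784429 to 12805116, minus strand; all positions are in build dm6), the kinase, was at 1.09, 7.16 and 4.27 CPM in control replicates 1, 2 and 3 and 2.18, 9.25 and 5.12 CPM in replicates 1, 2 and 3 labelled Pex5-depleted. Its values spread over a wide range within both groups, and its log2 fold change of 0.44 (SE 0.79) had an adjusted p of 0.873. Atg13, which links the kinase to its partners, was at 6.32 ± 2.85 against 7.88 ± 1.00 CPM (SD, n = 3 each), with a log2 fold change of 0.32 (SE 0.57). Leaving out 1 library moved it between 0.0663 and 0.73. Atg101, which binds Atg13, was at 9.88 ± 3.08 against 11.9 ± 1.96 CPM (log2 fold change 0.28, SE 0.46, between 0.0393 and 0.48 without 1 library), and its 3' end lies inside S6KL on the same strand, so that its reads may be split between both. Atg17, the scaffold of the complex and the fly counterpart of FIP200, had 50, 4 and 36 UMIs among the controls against 39, 16 and 37 in the other libraries. Control replicate 2 and replicate 2 labelled Pex5-depleted were the low ones, and the sign of its log2 fold change (0.26, SE 0.71) turned when control replicate 2 was left out (-0.25).

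In the Vps34 complex, which makes PI3P on the forming membrane, 2 of 4 members were tested and they pointed in opposite directions. Atg6 (FBgn0264325, chromosome 3R, 24049180 to 24050782, minus strand), the fly Beclin 1, was at 9.77, 12.96 and 30.4 CPM in control replicates 1, 2 and 3 and 7.99, 5.67 and 8.88 CPM in replicates 1, 2 and 3 labelled Pex5-depleted. Control replicate 3 stood far above all other libraries and the groups did not overlap. Atg6 had a fitted log2 change of -1.25 with an SE of 0.51 (95% interval -2.33 to -0.17, adjusted p = 0.298). Without control replicate 3 its log2 fold change was -0.61, and over all fits without 1 library it lay between -1.55 and -0.61. Atg14 (FBgn0039636, chromosome 3R, 29116391 to 29118390, plus strand) directs the complex to sites of autophagosome formation and was at 6.24, 2.39 and 2.40 CPM in control replicates 1, 2 and 3 and 13.8, 5.25 and 6.83 CPM in replicates 1, 2 and 3 labelled Pex5-depleted. Replicate 1 labelled Pex5-depleted was the highest, while control replicate 1 lay among the values of the other group. Atg14 had a fitted log2 change of 1.20 with an SE of 0.67 (95% interval -0.23 to 2.64, adjusted p = 0.483), and leaving out the highest library brought it to 0.70.

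The proteins that supply membrane or read PI3P had 3 of 4 genes tested. Atg9 (FBgn0034110, chromosome 2R, 16294400 to 16297232, plus strand), a transmembrane protein of the vesicles that seed the autophagosome, was at 11.7, 4.43 and 4.01 CPM in control replicates 1, 2 and 3 and 1.09, 3.99 and 2.05 CPM in replicates 1, 2 and 3 labelled Pex5-depleted. Control replicate 1 was the highest, and the groups were separated by a margin narrower than the spread within either of them. Atg9 had a fitted log2 change of -1.44 with an SE of 0.76 (95% interval -3.06 to 0.18, adjusted p = 0.451), and without control replicate 1 the log2 fold change was -0.79. Atg18a and Atg18b are related proteins that bind PI3P. Atg18a was at 7.60, 5.12 and 4.54 CPM in control replicates 1, 2 and 3 and 10.9, 10.1 and 7.52 CPM in replicates 1, 2 and 3 labelled Pex5-depleted. The groups just overlapped, through control replicate 1 and replicate 3 labelled Pex5-depleted, and the log2 fold change was 0.72 (SE 0.54, adjusted p = 0.640). Atg18b was at 18.2 ± 3.65 against 22.3 ± 2.67 CPM (SD, n = 3 each), with a log2 fold change of 0.29 (SE 0.34, 95% interval -0.44 to 1.02). Both kept a positive sign in all 14 alternative fits.

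The ubiquitin-like conjugation genes, the largest group, had 7 of 10 members tested, 2 with positive and 5 with negative fold changes and a median log2 fold change of -0.10. Atg8a (FBgn0052672, chromosome X, 10764878 to 10768338, minus strand) encodes the ubiquitin-like protein that is bound to lipid and coats the autophagosome, the fly counterpart of LC3 and GABARAP. It held 58.3% of all UMIs of the 32 genes. Levels were not divided by transcript length, since each UMI stands for 1 captured molecule. Atg8a was at 621, 634 and 573 CPM in control replicates 1, 2 and 3 and 518, 481 and 560.0 CPM in replicates 1, 2 and 3 labelled Pex5-depleted. The groups lay close together without overlapping, and the libraries within a group differed little. It had a fitted log2 change of -0.23 with an SE of 0.15 (95% interval -0.55 to 0.0895, adjusted p = 0.573), equal to a fold of 0.853 with an interval of 0.684 to 1.06, the narrowest of the members. Leaving out any 1 library kept this value between -0.31 and -0.18. The next members by mean CPM over the 6 libraries were Lamp1 (11.7% of the members' level), Rheb (5.09%), S6k (3.06%) and Atg12 (3.00%).

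Enzymes and partners that act on Atg8a showed wider errors. Atg3 (FBgn0036813, chromosome 3L, 18748687 to 18750483, plus strand), the E2-like enzyme that passes Atg8a to its lipid, was at 24.7, 25.6 and 22.7 CPM in control replicates 1, 2 and 3 and 11.6, 19.5 and 15.03 CPM in replicates 1, 2 and 3 labelled Pex5-depleted. The controls agreed closely and all lay above the other group, in which replicate 1 was lowest. Atg3 had a fitted log2 change of -0.65 with an SE of 0.35 (95% interval -1.39 to 0.10, adjusted p = 0.464), with log2 fold changes between -0.87 and -0.49 in the fits without 1 library. Atg4a (FBgn0031298, chromosome 2L, 1080911 to 1085380, plus strand), a protease that trims Atg8a and releases it from the membrane, was at 6.79, 5.46 and 5.87 CPM in control replicates 1, 2 and 3 and 12.7, 6.09 and 22.2 CPM in replicates 1, 2 and 3 labelled Pex5-depleted. Only replicate 3 labelled Pex5-depleted exceeded the controls by more than 3-fold, and replicate 2 of that group lay within them. Atg4a had a fitted log2 change of 1.16 with an SE of 0.55 (95% interval -0.00709 to 2.33, adjusted p = 0.382), and without replicate 3 labelled Pex5-depleted the log2 fold change was 0.60.

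Atg12 (FBgn0036255, chromosome 3L, 12136967 to 12137559, plus strand), the ubiquitin-like protein that is joined to Atg5, was at 37.7, 16.4 and 36.3 CPM in control replicates 1, 2 and 3 and 19.2, 34.7 and 30.1 CPM in replicates 1, 2 and 3 labelled Pex5-depleted. Each group had 1 low library, with a fitted log2 change of -0.10 (SE 0.36, 95% interval -0.87 to 0.66). Its 3' end runs into ND-SGDH on the opposite strand, which had 4154 UMIs against the 629 of Atg12, and whether counting used strand is not given in the sources used here, so the separate value of Atg12 is uncertain. Atg5, the partner of Atg12, was at 8.31 ± 3.77 against 6.56 ± 3.62 CPM (SD, n = 3 each) and its log2 fold change was -0.34, with an SE of 0.62. Atg16, which anchors the pair to the membrane, was at 6.26 ± 3.15 against 6.14 ± 1.31 CPM (SD, n = 3 each) and its log2 fold change was -0.0215, with an SE of 0.62. For both genes the sign turned in at least 1 fit that left out a library. The 3' end of Atg5 lies under CG1677 on the same strand. Atg10, the E2-like enzyme for Atg12, had 1, 6 and 20 UMIs among the controls against 20, 24 and 1 in the other libraries, with 1 UMI in a library of each group, and a log2 fold change of 0.71 (SE 1.01). Its fits without 1 library lay between 0.12 and 1.87.

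Cargo and lysosome genes all had negative fitted fold changes, with a median log2 fold change of -0.49 and none past the threshold. Lamp1 (FBgn0032949, chromosome 2L, 21573389 to 21577103, plus strand), a glycoprotein of the lysosomal membrane, had the smallest p of the members. It was at 116, 126 and 174 CPM in control replicates 1, 2 and 3 and 105, 72.7 and 85.4 CPM in replicates 1, 2 and 3 labelled Pex5-depleted. Control replicate 3 was the highest and replicate 2 labelled Pex5-depleted the lowest, and the groups did not overlap. Lamp1 had a fitted log2 change of -0.66 with an SE of 0.22 (95% interval -1.14 to -0.19, adjusted p = 0.190) by edgeR. The adjusted p was 0.0606 with DESeq2 and 0.136 with limma-voom, and in the edgeR fits without 1 library it ran from 0.171 to 0.477, with log2 fold changes between -0.82 and -0.48.

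Mitf (FBgn0263112, chromosome 4, 1198852 to 1224467, plus strand) is the single fly member of the MiT family that includes mammalian TFEB, a transcription factor of lysosomal and autophagy genes. It was at 7.60, 9.55 and 8.28 CPM in control replicates 1, 2 and 3 and 4.36, 6.09 and 7.52 CPM in replicates 1, 2 and 3 labelled Pex5-depleted. The groups did not overlap, but replicate 3 labelled Pex5-depleted came close to control replicate 1, and Mitf had a fitted log2 change of -0.49 with an SE of 0.55 (95% interval -1.67 to 0.68, adjusted p = 0.756). The cargo receptor ref(2)P (FBgn0003231, chromosome 2L, 19542468 to 19545548, plus strand), the fly p62, carries ubiquitinated proteins to Atg8a, and its protein, rather than its transcript, is widely used as a marker of autophagic flux. It was at 35.3, 30.02 and 19.2 CPM in control replicates 1, 2 and 3 and 35.6, 22.1 and 25.97 CPM in replicates 1, 2 and 3 labelled Pex5-depleted. The ranges of the groups were nearly the same, and the log2 fold change of -0.0204 (SE 0.33) had a 95% interval of -0.73 to 0.68.

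On the TOR side 4 of 7 genes were tested. Rheb (FBgn0041191, chromosome 3R, 5568921 to 5570491, plus strand), the GTPase that activates the Tor and raptor complex, was at 58.6, 45.7 and 51.8 CPM in control replicates 1, 2 and 3 and 57.7, 32.8 and 49.2 CPM in replicates 1, 2 and 3 labelled Pex5-depleted. Replicate 2 labelled Pex5-depleted was the lowest and the other 5 libraries lay close together, with a log2 fold change of -0.17 (SE 0.27, 95% interval -0.73 to 0.40). S6k (FBgn0283472, chromosome 3L, 5797549 to 5810931, minus strand), the kinase that the complex phosphorylates to raise translation, was at 31.8, 24.9 and 27.5 CPM in control replicates 1, 2 and 3 and 26.9, 26.1 and 40.7 CPM in replicates 1, 2 and 3 labelled Pex5-depleted. Replicate 3 labelled Pex5-depleted stood above the rest and the others spanned a narrow range, with a log2 fold change of 0.15 (SE 0.30, 95% interval -0.50 to 0.79). For these 2 genes the interval thus left room for less than a 2-fold change either way.

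The remaining tested TOR genes were sparse. The raptor transcript, whose protein brings substrates to Tor, was at 3.94 ± 0.791 against 4.18 ± 3.08 CPM (SD, n = 3 each), with a log2 fold change of 0.0824 (SE 0.75). Its sign was negative without a composition factor (-0.0378). Tsc1, which stabilises the gig protein, had 13, 1 and 3 UMIs among the controls against 4, 16 and 14 in the other libraries. Control replicates 2 and 3 were the low ones and control replicate 1 lay within the other group. The log2 fold change of Tsc1 was 1.00 (SE 0.94, adjusted p = 0.716), and without control replicate 1 it was 2.38.

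For 9 members, among them Tor itself, the counts did not meet edgeR's expression filter. The total alone did not decide this, since Tsc1 met the filter with 51 UMIs and Atg7, also with 51, did not. Together they held 209 of the 19993 UMIs of the members, between 6 and 51 each over all 6 libraries. Tor had 0, 5 and 0 UMIs among the controls against 0, 1 and 0 in the other libraries, and gig had 6, 0 and 0 against 1, 0 and 0. Most libraries were thus at 0 for both genes, where a count of 0 allows up to 3 UMIs, or 0.630 to 1.09 CPM depending on the library. Such floors cover counting error only. Of the rictor transcript, whose protein defines the second Tor complex, 7, 13 and 6 UMIs were counted among the controls against 0, 4 and 12 in the other group. The lipid kinase Pi3K59F, which is Vps34, had 7, 8 and 1 against 4, 11 and 9 UMIs, and its regulatory partner Vps15 had 0, 7 and 0 against 8, 2 and 0. Neither pair of groups was apart, and the Vps15 counts came from 1 control and 2 other libraries.

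Atg7, the E1-like enzyme that activates both ubiquitin-like proteins, had 14, 2 and 3 UMIs among the controls against 6, 2 and 24 in the other libraries, with 1 high library in each group. Atg2, which transfers lipid to the growing membrane, had 4, 1 and 1 against 2, 3 and 1 UMIs. Atg4b, the second Atg8 protease, had 0, 7 and 0 against 2, 0 and 5. Atg8b, a second Atg8 gene known in flies for its role in male fertility, had 0, 0 and 1 against 0, 17 and 2, so that 1 library held nearly all of its UMIs. No fold is given for these genes. The median length of the longest annotated transcript was 4239 bases for the 9 untested members and 2395 for the 23 tested ones.

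**Figure D4:**
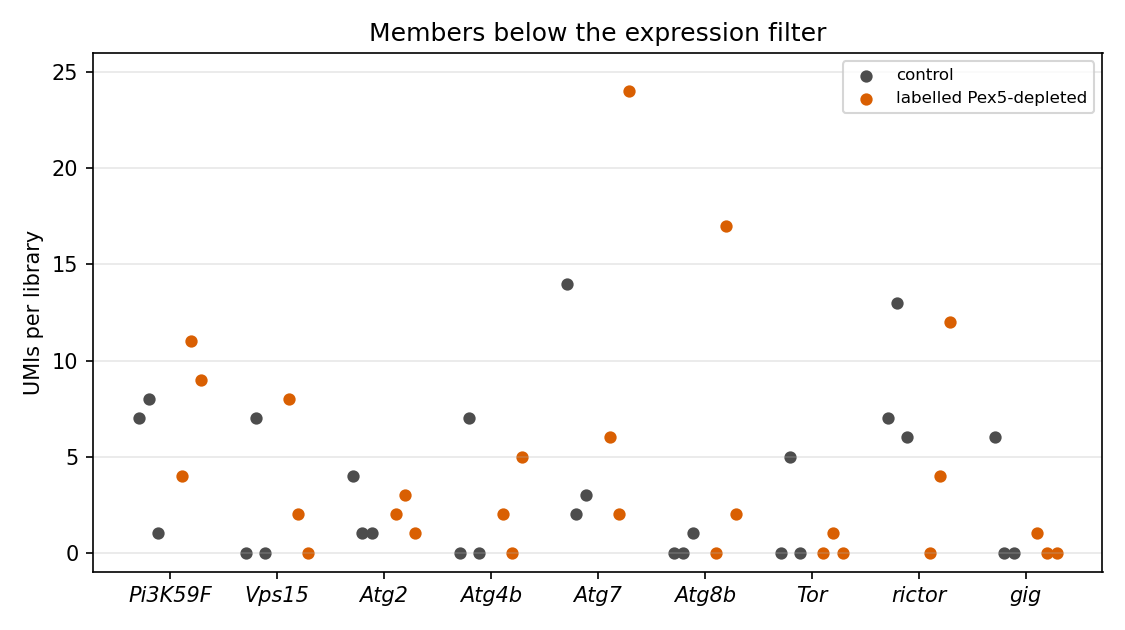
UMIs per library of the 9 members below the expression filter, with controls and libraries labelled Pex5-depleted side by side. No library exceeds 24 UMIs (Atg7 in replicate 3 labelled Pex5-depleted), and Tor and gig are at 0 in 4 of 6 libraries each.

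Overlap with other genes limits the separate values of some members. The 3' end, where the molecules are captured, lies under another annotated gene for 9 of the 32 members. Besides Atg101, Atg5 and Atg12, described above, the tested ones are Atg14 (under yem), Atg4a (CG4629), Atg10 (Dgk) and ref(2)P (CG10337), each with the neighbour on the opposite strand, and the untested ones are Pi3K59F (CG30184, same strand) and Atg4b (Tmtc4, opposite strand).

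Neighbouring steps of the pathway were read from 4 related lists, and 0 of their 73 tested genes passed in edgeR, beside 1.65% of all tested genes. Of the same genes 6 had an unadjusted p under 0.05, beside 13.2% of all tested genes. DESeq2 called 1, which was alc, beside 3.69%, and limma-voom called 0, beside 1.49%. To some genes of these lists DESeq2 gave no adjusted p. Of 21 genes of amino acid sensing upstream of Tor 17 were tested, with a median log2 fold change of 0.35 and 2 at an unadjusted p under 0.05. The smallest p belonged to Sec13, a coat protein that is also part of the GATOR2 complex. It was at 95.02 ± 12.6 against 65.1 ± 4.13 CPM (SD, n = 3 each) and its log2 fold change was -0.55, with an SE of 0.21 and an adjusted p of 0.264. Next came the Ragulator subunit Lamtor5 (CG14812 in the table), at 97.9 ± 11.9 against 132 ± 10.7 CPM (log2 fold change 0.43, SE 0.19), and the amino acid transporter gene path, at 76.9 ± 22.05 against 99.5 ± 4.44 CPM (log2 fold change 0.37, SE 0.24). The groups did not overlap for 3 of the 17 genes, beside 19.2% of all tested genes. These were Sec13, which was lower, and Lamtor5 and Samtor, which were higher.

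Insulin input, AMPK and outputs of TOR had 21 of 23 genes tested and a median log2 fold change of 0.11. A pair of subunits of AMPK, the energy-sensing kinase that restrains TOR and activates Atg1, had the smallest p of this list. The beta subunit gene alc was at 23.1, 23.5 and 26.4 CPM in control replicates 1, 2 and 3 and 56.3, 31.9 and 58.1 CPM in replicates 1, 2 and 3 labelled Pex5-depleted. All 3 libraries labelled Pex5-depleted lay above the controls, and the log2 fold change was 0.99 (SE 0.30, adjusted p = 0.132 by edgeR, 0.0482 by DESeq2 and 0.200 by limma-voom). The gamma subunit gene SNF4Agamma was at 20.4, 15.3 and 9.08 CPM in control replicates 1, 2 and 3 and 33.03, 35.5 and 30.1 CPM in replicates 1, 2 and 3 labelled Pex5-depleted. Its groups did not overlap either, and the log2 fold change was 1.14 (SE 0.35, adjusted p = 0.150 by edgeR and 0.0549 by DESeq2). Groups without overlap were found for 5 of the 21 tested genes, beside 19.2% of all tested genes. The others were chico, which was higher, and InR and eIF4E1, which were lower. In the 6 edgeR fits without 1 library alc passed in 0 and SNF4Agamma in 0. The gene of the catalytic subunit, AMPKalpha, was at 19.3 ± 6.10 against 27.3 ± 6.75 CPM (SD, n = 3 each; log2 fold change 0.51, SE 0.36, adjusted p = 0.604), named here after its values were seen. REPTOR, a transcription factor held inactive by TOR, was at 15.8 ± 4.66 against 7.69 ± 2.81 CPM (SD, n = 3 each) and its log2 fold change was -1.05, with an SE of 0.48 and an adjusted p of 0.356.

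Genes of autophagosome and lysosome fusion had 19 of 22 members tested, a median log2 fold change of 0.21 and 0 past the threshold in edgeR, DESeq2 or limma-voom. The membrane fusion gene Vamp7 was at 125 ± 23.3 against 89.7 ± 11.4 CPM (log2 fold change -0.47, SE 0.21), the only one with an unadjusted p under 0.05. Uvrag, a partner of Atg6, was at 3.60 ± 1.80 against 8.14 ± 1.95 CPM (log2 fold change 1.19, SE 0.65), and Plekhm1 (CG6613 in the table) at 3.47 ± 2.57 against 7.53 ± 3.03 CPM (log2 fold change 1.11, SE 0.70). Lysosomal hydrolases and related genes had 16 of 23 tested, a median of 0.14, 0 at an unadjusted p under 0.05 and 0 past the threshold in any of the 3 tools. Their smallest p-values were those of TppII, a peptidase gene, Lip4, a lipase gene, and tobi, a glucosidase gene, with the log2 fold change at 1.12 for TppII (SE 0.60), at -1.34 for Lip4 (SE 0.72) and at 2.28 for tobi (SE 1.23). The tobi value ran between 0.92 and 4.94 in the 5 fits without 1 library in which it could be tested, and its level was 11.98 CPM in replicate 1 labelled Pex5-depleted against 3.57 and 0.342 CPM in replicates 2 and 3. TppII acts in the cytosol rather than in the lysosome. DESeq2 gave no adjusted p to TppII, Lip4, tobi, Uvrag and Plekhm1, among others, so these genes could not pass that tool.

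**Figure D5:**
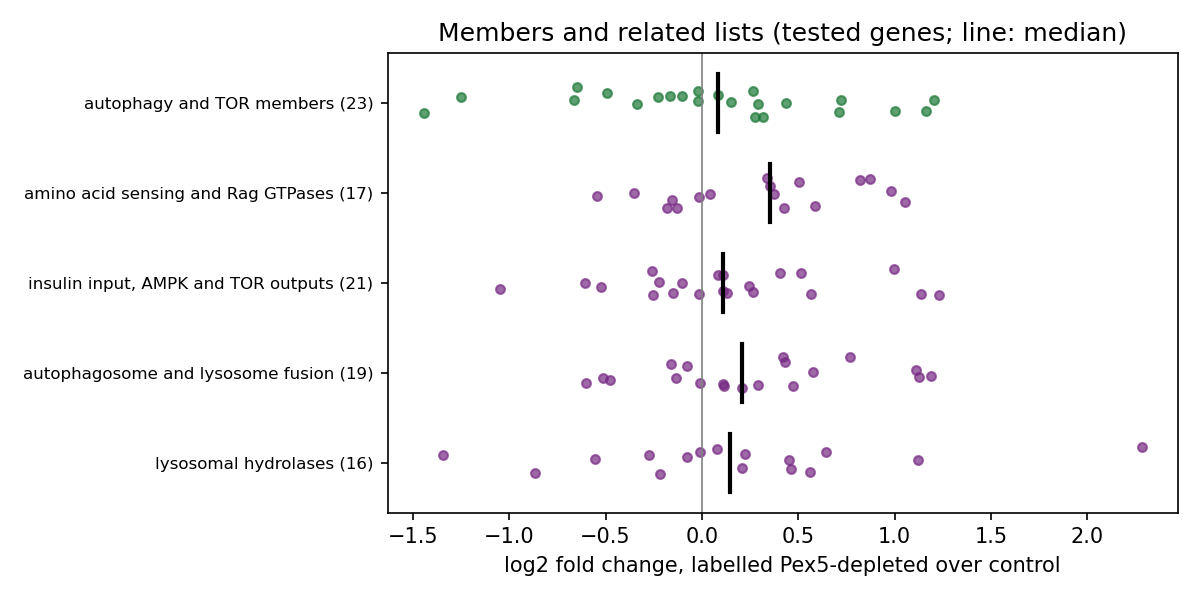
The log2 fold change of each tested gene among the members and the 4 related lists, with the number tested in parentheses and a line at each median. The medians lie between 0.0824 (members) and 0.35 (amino acid sensing), and each list spreads to both sides of 0.

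The authors' deposited table of fold changes differed from the UMI counts in size and, for some of these genes, in direction. It lists 25 of the 32 members at a false discovery rate under 0.05, which is 78.1% of them, beside 85.9% of all genes in the authors' deposited table. Tor has a fold of 227 in the authors' deposited table, while 6 UMIs of Tor were counted in the 6 libraries. For Atg8a the authors' deposited table gives -4.58 and for S6k 8.17, both as signed linear folds, where the UMI counts gave linear folds of 0.853 and 1.11. For Lamp1 it gives the smaller change, -1.22 beside a linear fold of 0.631. Of the 23 tested members 17 had the same sign in both. Those that did not include Atg14 (-2.65 beside a log2 fold change of 1.20) and Mitf (2.35 beside -0.49). A fold above 100 in either direction is given for 4243 genes of the authors' deposited table, of which 2164 could be matched to the UMI table, 1898 of them with 10 or fewer UMIs in the 6 libraries. Its sides are not named, and which samples it compares was not worked out here.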

How the data were processed

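The data are UMI counts per gene in 6 libraries, which the authors deposited as raw counts; per the submitters' processing notes the build was dm6, and HISAT2, StringTie and DESeq2 were used, with no role or version given. The 29 columns of other well indexes and 6 spike-in rows (7 UMIs, 3.37e-05% of the total) were left out. Members were matched by symbol, and all 32 had the same position in Ensembl release 115 of BDGP6. Older symbols of listed genes were matched through gene name tables.

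Counts of all genes were fitted in edgeR 4.0.16 (R 4.3.3) with TMM factors and tested by its quasi-likelihood F test, with group as the single term. The expression filter of edgeR, at a minimum count of 10, left 5639 genes, over which p-values were adjusted by Benjamini-Hochberg. A standard error (SE) is the log2 fold change over the root of its F. CPM use the TMM-scaled library sizes, and intervals cover the spread between these libraries. The fit was tested on simulated data. DESeq2 1.42.0, limma-voom (limma 3.58.1), other scalings and filters, a replicate block and fits without each library were the alternatives. The labels call the replicates biological, and pairs within a group differed by more than counting noise.

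The authors also deposited a fold change table, a signed linear score with p-values and false discovery rates, which does not name its sides and entered no test. Members and lists were chosen with earlier results of these data known. All members are named, and from each related list the 3 tested genes with the smallest p. A planned search of promoters for a motif was not run, and no sequences were used here.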

Additional observations from a re-analysis of the deposited data

How the results depend on the processing

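In all 14 alternative fits 0 members passed, and 14 of 23 kept the sign of their fold change. Over all genes the number past the threshold was 93, against 197 without a count filter, 208 with DESeq2, 58 with the replicate block and 17 to 80 in the fits without 1 library. Same-numbered libraries did not deviate together (correlations -0.0520 to 0.0124), so the numbers were not taken as a pairing. The members' median log2 fold change was -0.0378 without a composition factor. The count of members whose groups did not overlap was 6 to 11 without 1 library. It was 11 without control replicate 1, where 29.1% of all tested genes did not overlap, beside 19.2% with all libraries. Groups of 2 and 3 libraries lie apart more easily, so these counts cannot be set beside that of all libraries. The shares over all tested genes in the other fits are not given here, so their counts are not interpreted. The fold change of raptor turned negative without a composition factor (-0.0378), with limma-voom (-0.14) and with the replicate block (-0.12). That of Atg16 turned positive with limma-voom (0.0947), the replicate block (0.0473) and the library size without ribosomal protein, mitochondrial and heat shock transcripts (0.0454), and that of ref(2)P with the last of these (0.0443). Without 1 library the log2 fold changes that turned sign ranged between -0.18 and 1.03 for Atg1, -0.71 and 0.0480 for Atg5, -0.42 and 0.10 for Atg12, -0.24 and 0.44 for Atg16, -0.25 and 0.82 for Atg17, -0.24 and 0.17 for ref(2)P, -0.64 and 0.47 for raptor, -0.35 and 0.0342 for Rheb and -0.11 and 0.26 for S6k. The cause of these changes was not tested.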
